A study of Mus musculus with 16 samples.

Results

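The 2 heart libraries of a mouse tissue series, 1 from fed and 1 from fasting animals, were set against the 14 libraries of the other 7 tissues, out of 16 libraries in all. The rule that chose them was the tissue label alone. The question was which genes mark heart under both feeding conditions and which are missing from it, and fed and fasting hearts were not compared with each other. RNA was sequenced from muscle, liver, heart, lung, white adipose, brown adipose, spleen and kidney of male wild-type C57BL/6 mice, obtained at 12 weeks of age, that either ate standard chow freely (fed) or had food withdrawn for 24 h (fasting). Equal amounts of tissue from 3 mice of a group were pooled into each library, so each tissue had 1 fed and 1 fasting library, and all 8 tissues of a feeding group came from the same 3 mice. P-values here measure only the spread between such pooled libraries, not between animals. As no tissue had 2 libraries of the same treatment, this spread also holds any response to fasting that differs between tissues. The labels do not say which part of the heart was taken.

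The heart libraries held 17215802 (fed) and 15258447 (fasting) counted reads, within the range of 14245178 to 36069968 over all 16. Levels are given as CPM, counts relative to the total of the library, scaled with edgeR's TMM factors unless stated otherwise, and a level of 3 counts is 0.174 and 0.197 unscaled CPM in the fed and fasting heart library. The label was checked against markers of heart muscle cells. Myh6 and Tnnt2, as well as Tnni3, Myl2, Myl3, Actc1 and Ryr2, were all many-fold above the other 14 libraries, while Nppa, also on the marker list, was not above lung. None of the 16 libraries was left out.

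Heart muscle cells contract by sliding thin actin filaments along thick myosin filaments, and many proteins of this machinery are encoded by gene families with a heart form and skeletal muscle forms. Each beat starts with sodium and calcium entry, calcium release from the sarcoplasmic reticulum through the ryanodine receptor and its return by a pump under the control of phospholamban. The heart draws most of its energy from fatty acids, and it secretes natriuretic peptides. Whole tissue also holds vessels, fibroblasts, blood and nerves, and in bulk RNA fewer cells of a type cannot be told apart from less RNA per cell.

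Microribonucleic acids (miRNAs) encoded inside introns of the heart myosin genes are shown first, because they tie the heart genes below to short regulatory sequences. The RefSeq mature sequences (GRCm38.p6) of the miRNAs inside Myh6 (chr14:54949072-54949093, minus strand), Myh7 (chr14:54975710-54975731, minus strand) and Myh7b (chr2:155622893-155622913, plus strand) read as follows, with the seed, bases 2 to 8, in capitals.
mmu-miR-208a-3p: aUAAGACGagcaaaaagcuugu
mmu-miR-208b-3p: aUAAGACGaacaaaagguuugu
mmu-miR-499-5p: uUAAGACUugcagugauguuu
The first pair share the seed UAAGACG, and the seed of the third is UAAGACU. These libraries were not made for small RNA, so reads counted on the hairpin genes come from longer transcripts. The Mir208a hairpin had 34 and 18 counts in the fed and fasting heart libraries and at most 2 in any other library. The Mir208b hairpin had 0 and 4 counts in heart and at most 1 elsewhere, and Mir499 had 3 and 0 in heart and 0 elsewhere, so these 2 were at or near the floor of 3 counts.

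Sarcomere genes held some of the highest levels in heart. Myh6, the alpha myosin heavy chain of heart muscle (chr14:54941921-54966927, GRCm38), was at 33800 CPM in the fed and 35500 in the fasting heart library, against a lowest value of 0, a median of 14.4 and a highest value of 351 (lung, fed) in the 14 others. Both heart libraries lay above all others, with a log2 fold change over lung, the next tissue, of 6.94 ± 0.45 (SE; edgeR quasi-likelihood test, adjusted p = 1.16e-05). Myh6 alone took 3.08% of all fed heart counts (95% Clopper-Pearson interval 3.068 to 3.085%) and 3.11% of the fasting ones (3.101 to 3.118%), and these intervals cover counting error only. Tnnt2, the cardiac form of troponin T, the subunit that ties troponin to tropomyosin, was at 5890 and 6320 CPM in heart (chr1:135836354-135852260). In the other libraries Tnnt2 ran from 0.0685 over a median of 3.89 to 59 CPM (lung, fed), and heart was higher by 6.91 ± 0.90 on the log2 scale (edgeR adjusted p = 0.00232).

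Across the whole table, 55385 genes were listed and 23580 passed the filter on low counts. Heart was higher than the mean of the other 7 tissues in 5352 genes (22.7% of those tested) and lower in 4677 (19.8%) by edgeR at an adjusted p under 0.05. When libraries were scaled by their totals alone, 4428 were higher and 6307 lower. The median gene lay at -0.156 on this log2 scale with TMM and at -0.347 without it, so values against the mean are best read relative to that shift. Because so many genes were called in each direction, a stricter question was asked: whether heart was above every one of the 7 tissues, taking the weakest of the 7 comparisons. This held for 272 genes (1.15%), with a median log2 fold change over the next tissue of 3.06 (range 0.58 to 9.36). Without the fed or the fasting heart library 145 and 149 genes were above every tissue, and 2608 and 2645 were lower than the mean, and without fasting muscle 169 were above every tissue. Of the 272, 179 genes (0.759% of those tested) were also at least 4 times the highest other tissue in the fed and again in the fasting libraries and are called heart-enriched below, 108 of them protein-coding.

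Next to heart, the highest level of these 179 genes was in lung for 59, muscle for 52, white adipose for 24, kidney for 18, spleen for 13, brown adipose for 8 and liver for 5. The median heart-enriched gene was 13.6 times above its next tissue in the smaller of the 2 ratios. Together they took 13.3% of fed and 11.9% of fasting heart counts, but no more than 0.31% of any other library (muscle, fed). The genes just inside the 4-fold limit were Camta1 (4.01), Fhod3 (4.03) and Myzap (4.06), and those just outside it were Gpsm1 (3.99), Ppp1r13l (3.95) and Lmod2 (3.83). Leaving out 1 heart library reduced the number of heart-enriched genes to 112 (without fed heart) or 115 (without fasting heart), and without the fasting muscle library it was 117.

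**Figure D1:**
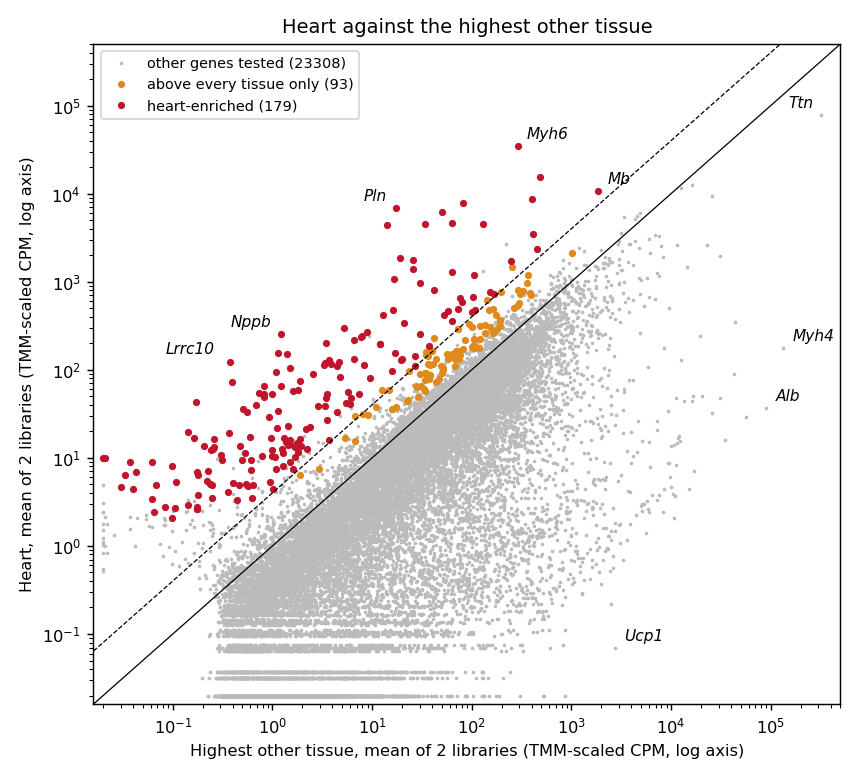
Mean TMM-scaled CPM in heart (vertical, log axis) against the highest mean among the 7 other tissues (horizontal, log axis) for 23580 genes, each point a gene. The solid line marks equal levels and the dashed line a 4-fold excess in heart. The 179 heart-enriched genes (red) lie above the dashed line, Ttn and Myh4 lie on the other side of equality, and Ucp1 and Alb lie at the lower right.

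The thick filament list held 16 genes, of which 14 were higher in heart than the mean of the other tissues, 0 were lower, and 6 were heart-enriched. Besides Myh6 these were the ventricular light chains Myl2 and Myl3, Mybpc3 (cardiac myosin binding protein C), Mylk3 (the cardiac myosin light chain kinase) and Myh7b. Mybpc3 was at 4640 and 4160 CPM in heart, against 0 to 19.5 CPM (median 2.49) in the others, a log2 excess over lung of 8.33 ± 0.38 (edgeR adjusted p = 1.56e-06). Myl2 was at 8460 and 7390 CPM in heart, against 0 to 112 (median 3.48) elsewhere, and its log2 excess over muscle was 6.68 ± 0.75 (edgeR adjusted p = 0.000792). The median member of this list lay at 7.10 against the mean of the other tissues but at -0.29 against its next tissue, where all genes tested lay at -0.16 and -1.59. With every library raised to at least 3 counts the list's medians were 7.09 and -0.32.

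Of the 16 members, 6 were highest in muscle and 3 in lung. For tissues other than heart, the share of all genes tested that were highest there is not given here, and counts below share this limit. Ttn, the giant spring protein titin, was at 81300 and 76000 CPM in heart and at 310000 and 323000 in muscle. It was still the largest single gene in heart, with 7.4% and 6.66% of counts. Myh7, the beta myosin heavy chain, was at 518 and 2140 CPM in heart and at 192 and 69.6 in muscle, and its log2 difference of 3.60 ± 0.85 did not pass against every tissue (edgeR adjusted p = 0.0951). Myl4 and Myom3 were the 2 members not called against the mean.

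All 12 thin filament genes were higher in heart than the mean of the other tissues, and 6 were heart-enriched. Actc1, cardiac alpha actin, was at 11100 and 6260 CPM, against 0.234 to 404 (median 3.09) elsewhere, a log2 excess over muscle of 4.38 ± 0.32 (edgeR adjusted p = 2.58e-05). Tnni3, cardiac troponin I, was at 4620 and 4350 CPM, against 0.0579 to 42.2 (median 2.91), an excess over lung of 7.05 ± 0.52 (edgeR adjusted p = 3.03e-05). Tnnc1, troponin C of heart and slow muscle, was at 1860 CPM in both heart libraries and at most 26.2 elsewhere. The other enriched members were Tnnt2, Ankrd1 (a stress-responsive ankyrin repeat protein, 1130 and 2410 CPM) and Fhod3 (a formin, 515 and 430 CPM). Tpm1, alpha tropomyosin, was at 9650 and 9300 CPM in heart but at 27300 and 24500 in muscle. The list's median was 7.86 against the mean and 2.15 against the next tissue, and 7.89 and 2.2 with libraries raised to 3 counts.

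The Z-disc, which anchors the thin filaments, gave a different split. All 18 members were higher than the mean of the other tissues, but only 3 were heart-enriched and 11 were highest in muscle. The enriched ones were Fhl2 (a LIM protein, 1940 and 821 CPM, at most 27.2 elsewhere), Csrp3 (muscle LIM protein, 1280 and 1320 CPM, at most 65.1) and Myoz2 (a calcineurin-binding Z-disc protein, 1060 and 1360 CPM, at most 135). Cryab, the small heat shock protein alpha B crystallin, was above every tissue at 1220 and 1170 CPM but not by 4 times, since fed muscle held 446.

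**Figure D2:**
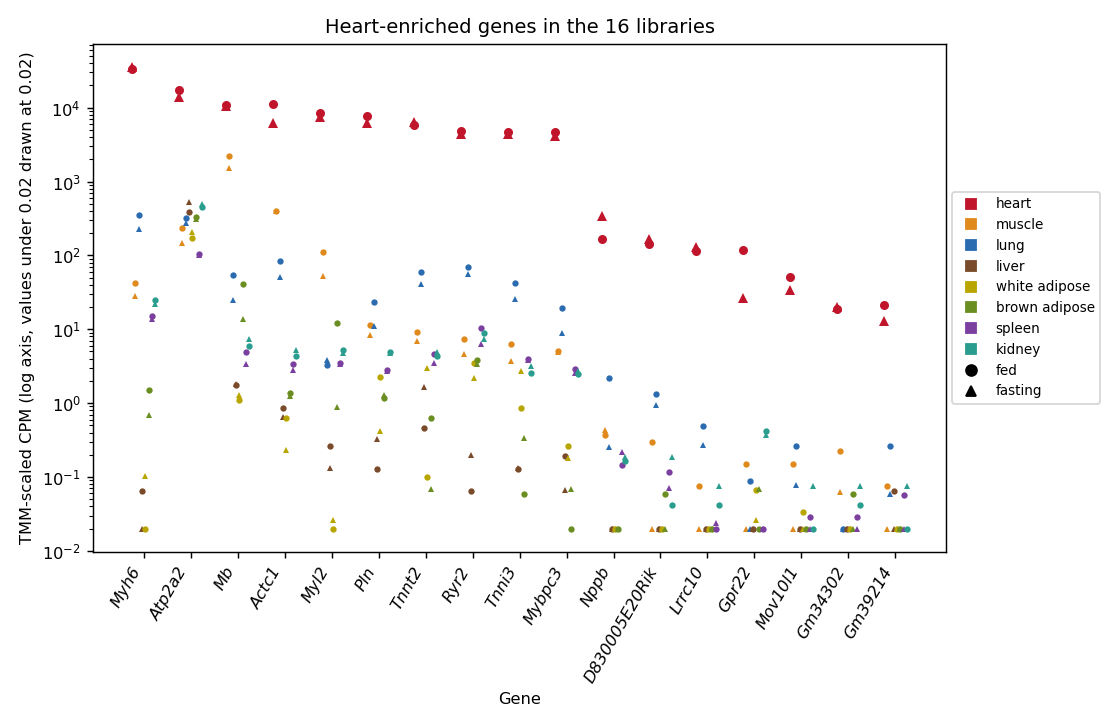
TMM-scaled CPM on a log axis in each of the 16 libraries for 17 heart-enriched genes, ordered by heart level. Circles are fed and triangles fasting libraries, colours are tissues, and values under 0.02 are drawn at 0.02. Both heart points lie above all others for each gene, with the smallest gap at Mb, where fed muscle reached 2190 CPM.

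Genes of calcium handling included the largest excess over the next tissue of any gene at 10 CPM or more in both heart libraries. Pln encodes phospholamban, the inhibitor of the sarcoplasmic reticulum calcium pump. It was at 7630 and 6180 CPM in heart, against 0.13 to 23.7 CPM (median 2.78) elsewhere, and the log2 difference from lung was 8.70 ± 0.57 (edgeR adjusted p = 1.25e-05). Of its exon bases 64.7% overlap other annotated genes on the opposite strand, and whether counting used the strand is not stated, so part of these counts could belong to the partner. Atp2a2, the pump itself, is used in every tissue and ran from 101 to 533 CPM (median 297) in the other libraries, and heart at 17400 and 13900 CPM was 5.02 ± 0.31 above kidney on the log2 scale (edgeR adjusted p = 9.04e-06). Ryr2, the cardiac ryanodine receptor, was at 4840 and 4340 CPM, against 0.0651 to 70.2 (median 5.48), a log2 excess over lung of 6.19 ± 0.26 (edgeR adjusted p = 1.56e-06).

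Of the 21 calcium handling genes tested, 17 were higher in heart than the mean of the other tissues, 1 was lower, and 6 were heart-enriched. The other enriched members were Casq2 (cardiac calsequestrin, 1240 and 680 CPM, at most 42.5 elsewhere) and the L-type calcium channel subunits Cacna1c (653 and 665 CPM, at most 80.2) and Cacnb2 (156 and 105 CPM, at most 20). S100a1, a calcium-binding regulator, was above every tissue at 564 and 574 CPM without reaching 4 times. Itpr2, an inositol trisphosphate receptor, was lower, at 68.7 and 78.4 CPM against a median of 175. Sri, Mcu and Fkbp1b were not called. Hrc, a calcium-binding protein of the reticulum, was at 911 and 782 CPM in heart and reached 865 in fed muscle.

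All 19 genes on the potassium channel list were higher in heart than the mean of the other tissues, and 8 were heart-enriched. This was the largest number in any list, though the shorter ventricular and thin filament lists held 6 of 11 and 6 of 12. The list does not cover all such channels. Outside it, Kcng2 was also heart-enriched, at 115 and 75.2 CPM against at most 1.41 elsewhere, while Kcns3 was among the genes missing from heart. The median gene of the list lay at 5.42 against the mean (4.96 with libraries raised to 3 counts) and at 0.97 against the next tissue. Kcnd2 and its partner Kcnip2, which carry a transient outward current, were at 61.4 and 43.5 CPM and at 191 and 274 CPM, against at most 1.1 and 14 elsewhere. Kcnj3 and Kcnj5, the subunits of the channel that acetylcholine opens, were at 133 and 91.5 CPM and at 113 and 68.3 CPM. Kcnh2, which carries a rapid repolarising current, was at 68.7 and 44 CPM, Kcna4 at 8.36 and 5.76, Kcnv2 at 21 and 23, and Abcc8, a sulfonylurea receptor, at 60.2 and 35.6. Abcc9, the other sulfonylurea receptor, was at 801 and 713 CPM and was shared with muscle, which reached 822.

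Among 13 pacemaker and T-type channel genes, 10 were higher than the mean and Hcn2, a pacemaker channel, was the only enriched one, at 26.4 and 16.4 CPM against at most 2.66. Hcn4, the main channel of the sinus node, was at 23.7 and 8.67 CPM and was not called above muscle, its next tissue (log2 1.38 ± 0.57, edgeR adjusted p = 1).

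The intercalated disc joins heart muscle cells end to end. All 19 genes listed for it were higher in heart than the mean of the other tissues. Popdc2, a membrane protein of muscle that binds cyclic AMP, was the only enriched one on that list (498 and 482 CPM, at most 88.4). Pkp2 and Cdh2, which build the adhesive junctions of the disc, were above every tissue at 216 and 367 CPM and at 421 and 313 CPM, with liver next in both. Dsp, desmoplakin, was at 2730 and 2670 CPM in heart against at most 267 elsewhere, a log2 difference of 3.60 ± 1.03 that did not pass (edgeR adjusted p = 0.266). Gja1, the main ventricular gap junction protein, was at 588 and 252 CPM, and fed brown adipose held 298.

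Of 24 cardiac transcription factor genes tested, 21 were higher than the mean of the other tissues and 4 were heart-enriched. Nkx2-5, a homeobox factor of heart development, was at 58.1 and 48.7 CPM, against 0 to 3.54 (median 0.0637) in the other libraries (log2 excess over spleen 3.91 ± 0.50, edgeR adjusted p = 0.0051). Tbx20, a T-box factor, was at 218 and 171 CPM, against 0 to 13.3 (median 0.137), with liver next. Myocd, myocardin, a coactivator of serum response factor, was at 139 and 80 CPM against at most 5.04, and Irx4, a ventricular homeobox factor, was at 48.4 and 20.4 CPM against at most 1.29.

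Factors with a wider range were still highest in heart in part. Gata4 was at 132 and 103 CPM in heart and at most 40.4 in liver (log2 1.67 ± 0.32, edgeR adjusted p = 0.0351), and Gata6 and Zfpm2 also passed against every tissue without reaching 4 times. Tbx5 was at 38.4 and 43.7 CPM in heart but at 34.5 and 40.5 in lung (log2 0.13 ± 0.35, edgeR adjusted p = 1). Hand2 was at 50.2 and 42.6 CPM with liver next at no more than 12.6 and did not pass (edgeR adjusted p = 0.109). Hand1 had 0 counts in both heart libraries and Isl1 had at most 1. Nfatc1 was the 1 factor called lower, at 27.8 and 37.5 CPM.

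Genes known from the ventricles and from the atria differed in where they were highest. Of the 11 ventricular genes tested, all were higher in heart than the mean of the other tissues, 9 were highest in heart, and 6 were enriched: Myl2, Myl3, Nppb, Lrrc10, Kcnip2 and Irx4. Over all 23580 genes tested, 1880 (7.97%) were highest in heart. Lrrc10, a leucine-rich repeat protein of the heart, was at 116 and 132 CPM, against 0 to 0.485 (median 0), a log2 excess over lung of 8.36 ± 0.39 (edgeR adjusted p = 2.58e-05). Nppb, B-type natriuretic peptide, was at 169 and 342 CPM, against 0 to 2.18 (median 0.155), an excess over lung of 7.82 ± 0.85 (edgeR adjusted p = 0.00344), which did not pass when either muscle library was left out.

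Of the 12 atrial genes, 8 were higher in heart than the mean of the other tissues and 1 was lower, with a median of 2.67 (1.27 with libraries raised to 3 counts). None of the 12 was above every tissue by the edgeR test. Lung was highest for 7 and heart for 3, where 7.97% of all genes tested were highest in heart. The matching share for lung is not given here. Myl7, the atrial regulatory light chain, was at 16 and 1.05 CPM in heart and at 58.6 and 24.9 in lung. Myl4, the atrial essential light chain, was at 20.4 and 2.39 CPM in heart and at 76.2 and 33 in lung, and Sln, sarcolipin, was at 3.89 and 0.15 in heart and at 16.4 and 7.61 in lung. For these 3 genes both lung libraries lay above both heart libraries.

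Nppa, atrial natriuretic peptide, was at 124 and 136 CPM in heart and at 131 and 19.2 in lung, so the groups overlapped, and 61.5% of its exon bases overlap a gene on the opposite strand. Bmp10, an atrial growth factor, had 1 and 4 counts in heart and reached 37.5 CPM in fed lung. Lung was also the next tissue for Myh6 and Tnnt2, at 351 and 228 CPM and at most 59 CPM. What part RNA of heart muscle cells in the lung pools had in this pattern was not tested.

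**Figure D3:**
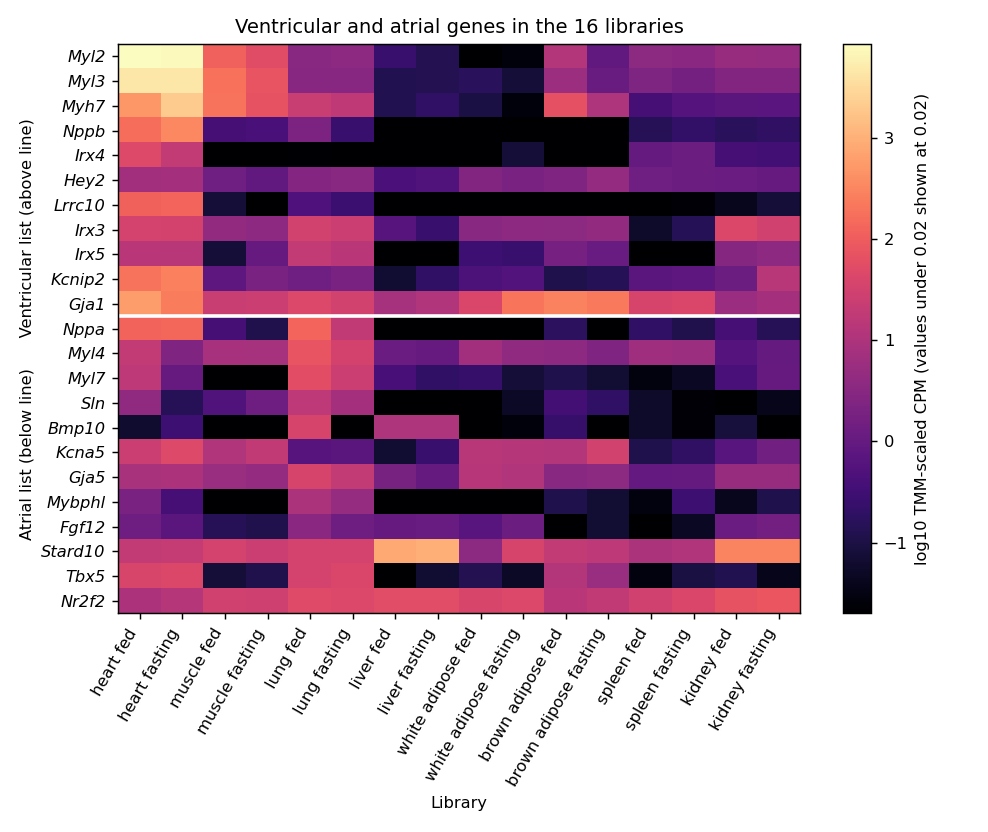
Heat map of log10 TMM-scaled CPM for 11 ventricular genes (above the white line) and 12 atrial genes (below it) in the 16 libraries, with values under 0.02 shown at 0.02. The 2 heart columns are brightest for Myl2, Myl3 and Nppb, while Myl7, Myl4 and Sln are brighter in the 2 lung columns.

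Receptors and signalling genes of the heart were mixed. Of 22 tested, 18 were higher in heart than the mean of the other tissues, 3 were lower, Adrb3 and Gnaq among them, and 4 were enriched: Pln, Nppb, Corin and Chrm2. Corin, the protease that cuts the natriuretic peptide precursor, was at 325 and 522 CPM, against 0.0651 to 14.3 (median 0.596). Chrm2, the muscarinic receptor that slows the heart, was at 276 and 230 CPM against at most 35.3 in lung. Adrb1, the main beta receptor of heart muscle, was at 27.9 and 15.6 CPM, and fed brown adipose held 45.1.

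Energy genes were high in heart but seldom particular to it. All 25 genes of fatty acid use and all 22 of the tricarboxylic acid cycle were higher than the mean of the other tissues, with medians of 2.2 and 2.23. Yet 14 and 16 of them were highest in brown adipose and 8 and 5 in heart, where 7.97% of all genes tested were highest in heart. The matching share for brown adipose is not given here. Each list had 1 enriched member. Fabp3, the heart fatty acid binding protein, was at 3050 and 3980 CPM, against 0.366 to 465 (median 12.8), a log2 excess over muscle of 3.08 ± 0.29 (edgeR adjusted p = 0.000227). Idh2, mitochondrial isocitrate dehydrogenase, was at 2070 and 2650 CPM, against 30.3 to 458 (median 130), with kidney next. Mdh1 was above every tissue at 2250 and 2040 CPM, 2.06 times kidney.

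Mb, myoglobin, the oxygen store of muscle, was the coding gene with the highest level per kilobase in heart, at 6670 and 6090 unscaled CPM per kb. On the TMM scale it was at 10900 and 10400 CPM in heart, against 1.1 to 2190 (median 6.61) elsewhere. Its log2 excess over muscle of 2.56 ± 0.41 passed (edgeR adjusted p = 0.00982), but not when either muscle library or the fasting heart library was left out. Of its exon bases 31.9% overlap an opposite-strand gene. Among the 20 muscle forms of respiratory chain and related genes, 19 were higher than the mean, 3 were above every tissue and 2 of these, Mb and Fabp3, were heart-enriched. The third, Cox7a1, was at 807 and 804 CPM, while Cox6a2 (1180 and 1110 CPM) and Slc25a4, the heart and muscle ADP/ATP carrier (5400 and 5600 CPM), were shared with muscle.

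**Figure D4:**
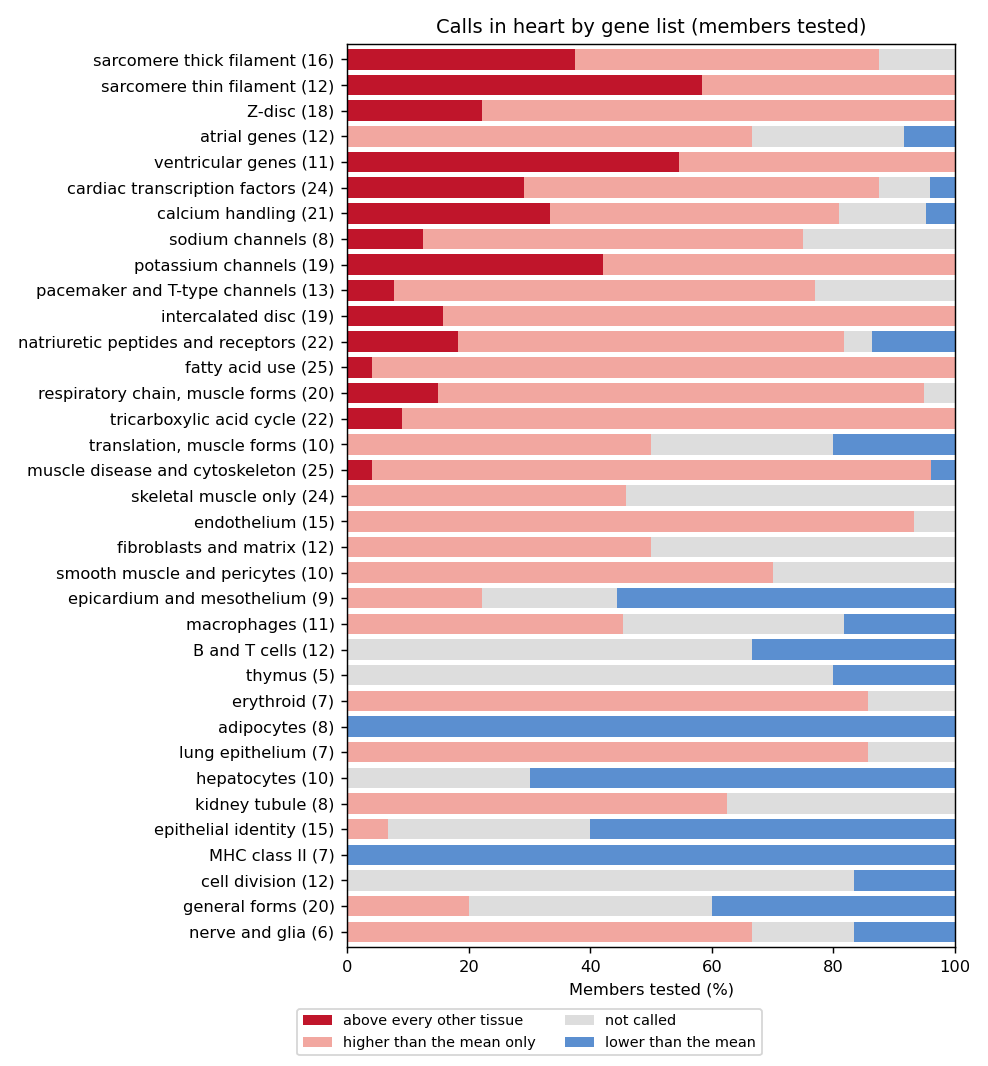
Share of the tested members of each of 35 gene lists (in %, number tested in brackets) that were above every other tissue, higher than the mean of the other 7 tissues only, not called, or lower than that mean in heart. Thin filament and ventricular lists hold the widest dark red bars, and the adipocyte and MHC class II lists are called lower throughout.

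Muscle was highest for 11 of the 18 Z-disc genes and 6 of the 16 thick filament genes, so the comparison was repeated without it. Then 419 of 23332 genes (1.8%) were heart-enriched, including 176 of the 179. Of the 243 gained, 143 were higher in muscle than in heart and 100 higher in heart, and their median log2 ratio of heart to muscle was -0.49. Paired gene forms were then compared within each library as the level per kilobase of the heart form in percent of both forms. In 31 of 32 pairs the heart form held more than 50% in both heart libraries, and in 17 it held less than 50% in both muscle libraries. A high share was often not particular to heart. In only 10 pairs did both heart libraries hold a larger share than every library of the other tissues.

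Several contractile pairs differed widely between the 2 striated tissues. Tnni3 made up 99.7% and 99.4% of Tnni3 plus Tnni2 in heart but 0.0395% and 0.0235% in muscle. The gap depended on the partner, since Tnni3 against Tnni1 was at 100% in both heart libraries and at 34.3% and 50.8% in muscle. Myh6 against Myh7 was at 22.1% and 34.1% in muscle. Tnnt2 against Tnnt3 was at 98.1% and 96.9% in heart and at 0.00743% and 0.0054% in muscle, and Actc1 against Acta1 was at 96.5% and 94.9% and at 0.868% and 0.884%. Ryr2 against Ryr1 and Atp2a2 against Atp2a1 were likewise split, each with heart shares of 99.7% and 99.3%, and with muscle shares of at most 0.0529% and 0.463%.

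Other pairs grouped heart with muscle. Cox6a2 made up 94.7% and 95.4% of Cox6a2 plus Cox6a1 in heart and 97.3% and 97.2% in muscle, and at most 17.7% elsewhere. Rpl3l, a muscle ribosomal protein, held 68.7% in both heart libraries and 90.6% and 88.3% in muscle against Rpl3, and no more than 4.78% elsewhere. Eef1a2, a muscle and nerve elongation factor, held 66.1% and 65.8% in heart against Eef1a1. Rpl3 and Eef1a1 themselves were lower in heart than the mean of the other tissues.

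Ldhb, the lactate dehydrogenase subunit typical of heart, held 82.8% and 85% in heart against Ldha, but 9.32% and 6.51% in muscle. Myh6 made up 98.8% and 95.5% of Myh6 plus Myh7 in heart, and between 94.4% and 98.1% in spleen, kidney and lung, where Myh6 was at most 351 CPM. The exception was Cpt1b, the muscle carnitine palmitoyltransferase, at 17.1% and 16.9% against Cpt1a. Of its exon bases 81.4% overlap another gene on the same strand, reads that featureCounts may leave unassigned, so its share is uncertain.

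**Figure D5:**
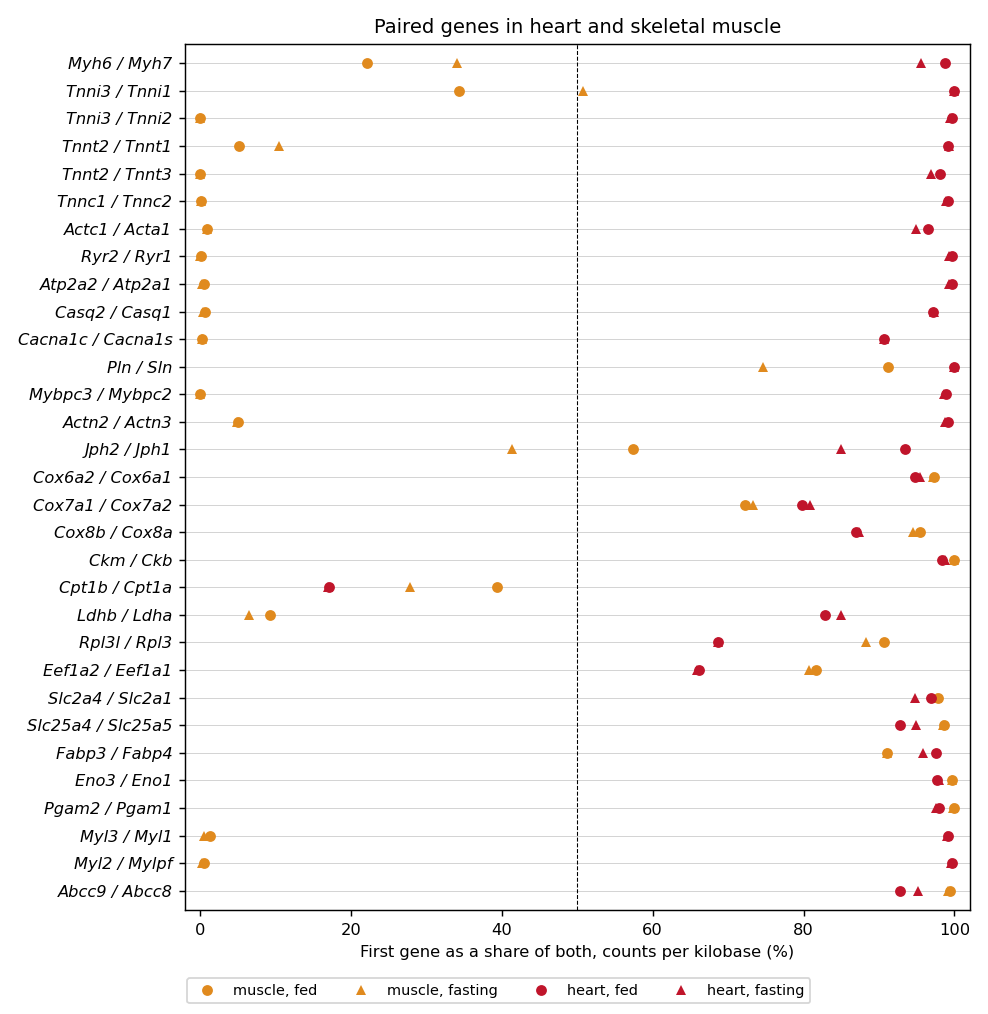
Counts per kilobase of the first gene as a share of both genes, in %, for 31 of the 32 pairs in heart (red) and muscle (orange), with circles for fed and triangles for fasting libraries. Heart points lie right of the 50% line in every pair drawn except Cpt1b / Cpt1a, and muscle points lie near 0 for pairs such as Tnni3 / Tnni2, Actc1 / Acta1, Ryr2 / Ryr1 and Atp2a2 / Atp2a1.

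Of the 108 protein-coding heart-enriched genes, 64 were in none of the gene lists. By the rule for named genes these include Mov10l1 and Gpr22. Mov10l1, best known as a helicase of small RNA pathways in the germ line, was at 51.5 and 34.3 CPM in heart, against 0 to 0.265 (median 0), a log2 excess over lung of 8.03 ± 0.63 (edgeR adjusted p = 0.00032). Gpr22, a receptor without a known ligand, was at 117 and 26.9 CPM, against 0 to 0.416 (median 0.0227; log2 excess over kidney 7.21 ± 0.55, edgeR adjusted p = 0.000183).

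The following were picked after their values were seen. Tnni3k, a kinase that binds cardiac troponin I, was at 170 and 133 CPM against at most 1.7, and Rnf207, a ubiquitin ligase linked to repolarisation, was at 118 and 91.7 against at most 1.83. Rrad, a small GTPase that restrains calcium channels, was at 257 and 229 CPM against at most 8.21. Ndrg4 was at 354 and 239 CPM against at most 6.08, Frmd5 at 195 and 206 against at most 3.63, and Ogdhl, a homologue of a tricarboxylic acid cycle enzyme, at 206 and 325 against at most 17. Slc4a3, an anion exchanger, was at 347 and 332 CPM against at most 25.6, and Prune2 at 772 and 856 against at most 50.5.

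The 71 heart-enriched genes that are not protein-coding include 29 lincRNAs, 18 gene models still to be tested experimentally (the class TEC) and 11 antisense genes. LincRNAs were 16.2% of the 179 enriched genes and 5.1% of all genes tested, TEC models 10.1% and 6.98%, antisense genes 6.15% and 4.07%, and protein-coding genes 60.3% and 69.6%. D830005E20Rik, an antisense gene on chromosome 10, was at 142 and 167 CPM, against 0 to 1.32 (median 0.0497), a log2 excess over lung of 7.11 ± 0.45 (edgeR adjusted p = 5.14e-05). Gm49708 was at 215 and 221 CPM against at most 6.78, and Gm30970, a processed pseudogene, at 140 and 100 against at most 4.27. Gm39214 was at 21.2 and 12.8 CPM against at most 0.265. Gm34302, listed as protein-coding, was at 19.1 and 19.8 CPM, and the highest other value was 0.225 CPM in fed muscle.

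Of the 71, 29 were within 100 kb of an enriched coding gene and 22 overlapped one, and 11 of the 29 are TEC models inside Pcdh7. The share of all tested noncoding genes that lie so close is not given here, so no clustering can be read from these counts. Mhrt, Gm29015 and Gm31251 run opposite to Myh6 and Myh7 on chromosome 14, and Mhrt, at 76.6 and 55.8 CPM in heart and at most 1.19 elsewhere, starts 1751 bases from Myh6. Of the exon bases of Mhrt and Gm31251, 39.9% and 41.9% overlap other genes. The TEC models inside Pcdh7 lie on its own strand, and Ryr2 contains 2 (Gm47493 and Gm47494), so reads from long introns of these genes cannot be told apart from separate transcripts. C130080G10Rik, at 79.8 and 26.5 CPM in heart, starts 787 bases from Actc1 on the other strand. Hand2os1, beside Hand2, was at 83.3 and 112 CPM with liver next at no more than 17.6. The only pair of coding neighbours within 100 kb was Fblim1 and Slc25a34 on chromosome 4, at 169 and 95.9 CPM and at 253 and 592 CPM.

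Promoters were read for the 80 heart-enriched coding genes with an entry in RefSeq (GRCm38.p6), 103 sequences of 250 bases before the start, on both strands. The CArG box (CC, then 6 A or T, then GG), bound by serum response factor, was in 5.83% of them and in 1.47% of 32851 promoters of the same length. The GATA motif AGATAA was in 12.6% against 9.99%, the MCAT motif CATTCC in 17.5% against 12.6%, the MEF2 motif TAAAAATA in 2.91% against 2.45%, the ERR motif AAGGTCA in 2.91% against 4.08%, and TATAAA in 8.74% against 12.4%. These shares are a description of letters in these windows, and binding was not measured. The 6 CArG boxes, in promoters of 5 genes, are shown because this motif had the largest ratio of the 2 shares among the 6 motifs searched. Each window of 30 bases has the box in capitals and is read on the strand of the gene.
Actc1, chr2:114052903-114052932, minus strand: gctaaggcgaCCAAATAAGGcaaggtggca
Fhl2, chr1:43163973-43164002, minus strand: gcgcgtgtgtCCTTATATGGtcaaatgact
Fhl2, chr1:43196838-43196867, minus strand: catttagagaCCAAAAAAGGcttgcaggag
Myl3, chr9:110763583-110763612, plus strand: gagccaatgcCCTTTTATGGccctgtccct
Prune2, chr19:16956028-16956057, plus strand: cacccactttCCTTATTAGGacagagtcgg
Fbxl22, chr9:66514796-66514825, minus strand: aaaagaaatcCCTTTTAAGGaaaacttgta
The boxes lie 47 bases before the start in Actc1, 31 and 96 in the 2 promoters of Fhl2, 85 in Myl3, 80 in Prune2 and 222 in Fbxl22. Of these, Actc1 and Myl3 are sarcomere genes and Fhl2 is a Z-disc gene, and Myl3 was at 4550 and 4600 CPM in heart and at most 187 elsewhere.

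The GATA motif occurred 3 times in 1 promoter, that of Tecrl, an enzyme-like membrane protein whose human gene is linked to inherited arrhythmia. Tecrl was at 89.5 and 167 CPM in heart, against 0 to 4.67 (median 0.0603), a log2 excess over lung of 5.12 ± 0.46 (edgeR adjusted p = 0.000266). The 150 bases before its start overlap no annotated exon and are printed on the minus strand of GRCm38.p6 with AGATAA in capitals, at 121, 80 and 55 bases before the start.
Tecrl, chr5:83355196-83355345: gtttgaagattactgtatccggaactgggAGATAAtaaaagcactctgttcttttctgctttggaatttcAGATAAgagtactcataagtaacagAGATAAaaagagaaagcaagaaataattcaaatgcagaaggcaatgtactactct

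On the low side, 0 genes (0%) were below every other tissue by edgeR at an adjusted p under 0.05. The lowest edgeR adjusted p was 0.0643, shared by Dpp7 and Met, and 200 genes had an unadjusted p under 0.05. DESeq2 called 10: Adss, Dpp7, Sec61b, Slc12a9, Met, Polr2a, Rffl, Enpp2, C2 and Scd1. Scd1, the desaturase that makes monounsaturated fatty acids, was at 29 and 29.2 CPM in heart and at 254 CPM or more in each other library. Its log2 difference from muscle, the next lowest tissue, was -3.60 ± 0.57 (edgeR adjusted p = 0.356). Met, the receptor of hepatocyte growth factor, was at 4.66 and 8.22 CPM in heart and at 27.4 CPM or more elsewhere, a difference of -2.26 ± 0.28 from spleen (edgeR adjusted p = 0.0643). Dpp7 was at 4.02 and 2.99 CPM in heart and at 10 CPM or more elsewhere, a difference of -1.55 ± 0.18 from brown adipose (edgeR adjusted p = 0.0643).

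Genes missing from heart were counted without a test, as those with at most 3 counts in each heart library and at least 10 unscaled CPM in both libraries of another tissue. They were 637 of the 13960 genes at that level elsewhere (4.56%), and 103 of them had 0 counts in both heart libraries. Their highest level was in spleen for 173, liver for 135, kidney for 133, lung for 125, white adipose for 35, brown adipose for 21 and muscle for 15. For 565 of them 10 CPM was reached in a single tissue. The matching counts over all 13960 genes are not given here, so these numbers do not rank the tissues by the share of genes missing from heart.

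The highest missing gene was Ucp1, the uncoupling protein of brown fat, at 3130 and 2500 unscaled CPM in brown adipose and with 1 count in each heart library, a ratio of 46100 (95% counting interval 12800 to 381000). Adrb3, the beta receptor of fat cells, was at 787 and 615 unscaled CPM in white adipose and had 0 counts in both heart libraries, at least 3130-fold lower against the floor of 3 counts in a library. Lep, leptin, was at 1140 and 263 unscaled CPM in white adipose and also had 0 counts in heart, at least 1340-fold lower.

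The other 7 were highest in liver. Asgr1 (a receptor for glycoproteins that lack sialic acid), Crp (C-reactive protein), Cyp2c37 (a cytochrome P450) and Amdhd1 (an enzyme of histidine breakdown) had 3, 3, 5 and 3 counts over both heart libraries and between 263 and 328 unscaled CPM in each liver library. Mup13 and Mup18, major urinary proteins, and Gm8893, a pseudogene, had 0, 3 and 2 counts over both heart libraries. Mup genes are near-identical copies, so reads may be split among them and their single values are uncertain.

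Only 11 of the missing genes reached 10 CPM in 3 or more tissues: Adrb3, Tmem45b, Klb, Grb7, Slpi, A530020G20Rik, Kcns3, Igsf5, Rassf6, Tjp3 and Pkp3. The epithelial identity list, of keratins, claudins and their regulators, had 9 of 15 members lower in heart than the mean of the other tissues and 1 higher, with a median of -2.71 (-2.32 with libraries raised to 3 counts), and 5 members had at most 3 counts in each heart library.

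Markers of other tissues and cell types were read as summed unscaled CPM in heart and in the tissue they mark. RNA carried over from another tissue and low expression by cells of the heart cannot be told apart in these sums. All 24 skeletal muscle genes tested were highest in muscle, and their sum was 721 and 812 in heart against 187000 and 184000 in muscle, 0.386% and 0.442% of it. Of these, 11 were called higher in heart than the mean of the other tissues, since most of those tissues held even less. The lung epithelium genes summed to 49.5 and 72.3 in heart, 0.184% and 0.255% of lung, and the kidney tubule genes to 0.21% and 0.254% of kidney. Of these, 6 of 7 and 5 of 8 were called higher in heart than the mean of the other tissues, and 0 of either list were called lower. Hepatocyte genes summed to 34.2 and 117, 0.029% and 0.0972% of liver.

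Adipocyte genes summed to 16.6 and 16, or 0.0896% and 0.0904% of white adipose, and all 8 were lower in heart than the mean of the other tissues. All 7 MHC class II genes were lower as well, with Cd74 at 124 and 72.8 CPM against 54 to 2500. Their sum of 267 and 155 was 2.92% and 1.88% of spleen, a larger share than for the other lists given here. The B and T cell genes were at 0.409% and 0.262% of spleen, 4 of 12 lower and 0 higher, where 19.8% of all genes tested were called lower.

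Of cell types that belong to the heart wall, 14 of 15 endothelial genes were higher than the mean of the other tissues but none was highest in heart: Pecam1 and Cdh5 were at 198 and 231 CPM and at 252 and 245 CPM, and lung was at up to 539 and 568. For fibroblasts 6 of 12 were higher, with Dcn at 581 and 758 CPM, and Col1a1 at 93.7 and 50.8 CPM was not called. Of 9 epicardial and mesothelial genes, 5 were lower and 2 higher, where 22.7% of all genes tested were called higher. Erythroid genes were higher for 6 of 7, with Hbb-bs at 1000 and 1040 CPM, all below spleen. The share of these cell types in the results above was not tested.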

How the data were processed

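Pooled heart RNA was compared with pooled RNA of 7 other mouse tissues. The authors deposited 1 table of raw counts per gene and library: paired-end reads of strand-specific libraries went through fastp 0.23.2 and FastQC 0.11.8, HISAT2 2.2.1.0 placed them on the GRCm38 genome, and featureCounts (Subread 2.0) assigned them to GENCODE mouse genes, per the submitters' processing notes and the study's methods. Whether reads or pairs were counted, and the strand setting, are not given in the sources used here, so values of overlapping and antisense genes are uncertain. The table also holds the deposited exon length, used for levels per kilobase. No count falls on the 37 mitochondrial genes. Symbols were matched for 55144 of 55385 gene identifiers from the reference annotation.

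Libraries were grouped by tissue label, with fed and fasting as the 2 libraries of a tissue. Counts were tested with edgeR 4.0.16 in R 4.3.3 (TMM factors, filterByExpr by tissue, a quasi-likelihood fit with tissue and treatment over all 16 libraries, 7 residual degrees of freedom, Benjamini-Hochberg adjusted p under 0.05). Heart was compared with the mean of the other tissues and with each tissue in turn, where the largest of the 7 p-values of genes with 1 direction was adjusted. Heart-enriched genes passed the latter and were at least 4 times the highest other tissue in both treatments, with that tissue raised to at least 3 counts. The mirror image defined heart-depleted genes, of which there were 0 (DESeq2 gave 2). SE are the log2 fold change divided by the square root of the F statistic. Fitted values against a tissue at 0 counts depend on the prior count, so medians are also given with libraries raised to 3 counts. Depth ranged from 14245178 to 36069968 counts.

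On simulated data for the comparisons above, 119 of 200 genes changed 2-fold and 200 of 200 changed 4-fold were recovered against the mean, and 0 and 184 against every tissue. The simulated counts had the same spread for all genes and changes only in well-covered genes. They held no other difference between tissues or treatments, unlike the real data. Alternatives were DESeq2 1.42.0, scaling by totals, no filter, no treatment term, robust fitting, other thresholds, and leaving out tissues or single libraries.

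The members, the 35 gene lists and the 32 pairs were chosen with earlier results of these data known. Genes named are the markers, the 12 heart-enriched genes with the largest excess over the next tissue and the 8 with the highest level (at 10 CPM or more in both heart libraries), the 10 highest missing genes, up to 8 noncoding ones, enriched neighbours and, per list, enriched members, the 3 highest per kilobase and those against the list's direction. Other names in the text are background markers or were chosen after their values were seen. Some items are not reported here.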

Additional observations from a re-analysis of the deposited data

How the results depend on the processing

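The 17 named heart-enriched genes were read under 23 alternative settings, which gave 391 combinations of gene and setting. They kept their direction in all 391 and stayed past the threshold in 386. The exceptions were Nppb without either muscle library (log2 7.82 both times) and Mb without fed muscle (2.6), fasting muscle (2.53) or fasting heart (2.32). Of 805 counts over the gene lists, 789 stayed within 1.5 times. Counts over all genes moved more. Leaving out 1 library gave 4004 to 5650 genes higher than the mean of the other tissues, 2608 to 4965 lower (2608 without fed heart, 2645 without fasting heart), 145 to 333 above every tissue (145 and 149 without fed and fasting heart, 169 without fasting muscle) and 112 to 202 heart-enriched, of which 100 to 178 were among the 179. In all 16 such fits 87 genes remained. A tissue left with 1 library was assumed to vary like the others. Without muscle 849 genes were above every tissue and 419 were heart-enriched, and without both adipose tissues 576 and 259. DESeq2 gave 161 heart-enriched genes, 153 of them shared.

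Genes below every tissue numbered 0 to 1 with 1 library left out, 10 by DESeq2, 1 with scaling by totals, 3 with no filter, 71 without muscle and 1 without both adipose tissues. Heart-depleted genes numbered 0 to 1, 2, 1, 2, 12 and 1 in the same order. Fewer comparisons enter where a tissue is left out. The cause of the other shifts was not tested. Missing genes numbered 2619 at 1 CPM elsewhere and 103 at 0 counts in heart. The share of the heart form was over 50% in 31 of 32 pairs with CPM in place of levels per kilobase as well. The treatment term of the fit pairs the libraries of a feeding group, which came from the same mice. Without that term 238 genes were above every tissue and 174 were heart-enriched. The labels give no replicate numbers beyond this. With 2 pooled libraries a tissue, genes changed 2-fold could not be called against every tissue in simulated data. In the real data the weakest gene called above every tissue had a log2 excess of 0.58, so the simulated recovery need not hold there. A gene not called is not shown to be equal.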

Other observations

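Gene lists outside the heart's own machinery gave the following calls against the mean of the other 7 tissues, to be read beside the 22.7% of all genes tested that were called higher and the 19.8% called lower. Genes of muscle disease and the cytoskeleton were higher in heart for 24 of 25, and Hspb7, a small heat shock protein of heart and muscle, was heart-enriched at 1550 and 1910 CPM against at most 286 elsewhere. Sntb1, a syntrophin, was the 1 member lower, at 7.85 and 8.45 CPM. Of 10 translation genes with muscle forms 5 were higher and 2 lower, and of 8 sodium channel genes 6 were higher and 0 lower. Of 20 general forms, the family members used outside muscle, 4 were higher and 8 lower. Smooth muscle and pericyte genes were higher for 7 of 10, and nerve and glia genes for 4 of 6 with 1 lower.

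Macrophage genes were mixed, with 5 of 11 higher and 2 lower (Csf1r and Cd68), and Adgre1 at 21.6 and 15.8 CPM was not called. Of 5 thymus genes tested, 1 was lower and 0 were higher. Of 12 genes of cell division, 2 were lower (Mcm5 and Plk1) and 0 were higher, and all 12 were highest in spleen. The shares called lower in the thymus and cell division lists are close to that of all genes tested.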
